A study of Homo sapiens with 4 samples.

Results

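The genes described here are 59 cyclins, cell cycle kinases, spindle and kinetochore genes and regulators of their transcription, which had been listed by name. A probe was found for 58 of them and 57 were tested, out of 14556 genes tested and 19102 genes named on the array. The deposited spot tables carry accessions and no column of gene names, so members were found by matching each accession to RefSeq, and UBE2C, the ubiquitin-conjugating enzyme of the anaphase-promoting complex, was not matched. CCND2, cyclin D2, had 1 probe, which was not well above background on any of the 4 arrays, and no fold is given for it. The cells were PC3, an established prostate carcinoma line, in which a lentiviral shRNA lowered ALKBH3, a demethylase of alkylated DNA and RNA, or targeted GFP as control. Every culture was infected and selected with puromycin, and RNA was taken at 48 h or at 96 h of selection. Each shRNA at each time point is represented by 1 single-colour Agilent array, from a selected population and not a clone, and the labels do not identify the ALKBH3 hairpin.

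Cells enter the cycle when D and E cyclins with their kinases phosphorylate RB1 and its relatives RBL1 and RBL2, which frees E2F factors to transcribe genes for DNA synthesis. Cyclin A and B partners of CDK1, the Aurora and Polo kinases, and the machinery of spindle, kinetochore and cytokinesis are then made in S phase, G2 and mitosis, in large part under B-MYB, the MuvB complex and FOXM1. In resting cells the DREAM complex, built of MuvB, RBL1 or RBL2 and a repressive E2F, holds the same genes down through short promoter elements. The mRNA level of most of these genes therefore follows the share of cells that are cycling. In a bulk sample a smaller share of cells in one phase and less RNA per cell cannot be told apart.

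Each slide held the control and the ALKBH3 array of 1 time point, so time point and slide cannot be told apart, whereas the shRNAs were compared within a slide. Signals are log2 intensities relative to the 75th percentile of the array, which was 2134 to 2385 intensity units, and between 67.0% and 70.9% of probes were well above background. ALKBH3 itself was lower with its shRNA by 1.75 at 48 h and by 1.51 at 96 h on the log2 scale (limma adjusted p = 0.238, and 0.021 with time point as a block). The keratins KRT18 and KRT19 and VIM had log2 signals above 5 on every array. The other epithelial and PC3 markers listed were dimmer, with KRT8 at 1.56 to 1.83, EPCAM at 2.41 to 3.84 and CDH1 at -1.28 to 0.79. KLK3, the gene of prostate-specific antigen, was not well above background. Of 10 markers of leukocytes, endothelium, fibroblasts and glia, 9 were tested, and their summed signal lay between 0.783 and 1.24 times the 75th percentile.

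Promoter sequences are shown for 7 members because the group differs from all genes of the table in how often its promoters carry the elements below. Each run holds the 120 bases before the RefSeq start of the gene in GRCh38.p14, read on the strand of the gene and ending at the base before the start. Capitals mark the cell cycle homology region (CHR, TTTGAA), the CCAAT box (CCAAT) and an E2F element (TTTGGCGC, TTTCCCGC, TTTGCCGC or TTTCGCGC), each searched on both strands, so that a reversed CCAAT box reads ATTGG. CCNB2, PLK1, HMMR and CDC20 are shown for a CCAAT box upstream of a CHR, the arrangement typical of late cell cycle genes.
CCNB2 (+ strand, chr15:59105026-59105145): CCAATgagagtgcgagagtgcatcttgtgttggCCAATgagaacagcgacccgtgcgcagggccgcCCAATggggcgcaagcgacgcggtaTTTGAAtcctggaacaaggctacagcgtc
PLK1 (+ strand, chr16:23678769-23678888): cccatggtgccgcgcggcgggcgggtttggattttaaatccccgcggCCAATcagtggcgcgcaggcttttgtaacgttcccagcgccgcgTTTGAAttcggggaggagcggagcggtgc
HMMR (+ strand, chr5:163460512-163460631): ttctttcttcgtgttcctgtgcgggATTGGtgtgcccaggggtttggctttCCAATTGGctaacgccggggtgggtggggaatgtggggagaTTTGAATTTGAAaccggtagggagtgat
CDC20 (+ strand, chr1:43358861-43358980): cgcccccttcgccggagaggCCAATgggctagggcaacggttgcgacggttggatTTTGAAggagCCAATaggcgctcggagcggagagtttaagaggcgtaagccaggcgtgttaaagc
E2F2 and CDC25A are shown for an E2F element close to the start.
E2F2 (- strand, chr1:23531234-23531353): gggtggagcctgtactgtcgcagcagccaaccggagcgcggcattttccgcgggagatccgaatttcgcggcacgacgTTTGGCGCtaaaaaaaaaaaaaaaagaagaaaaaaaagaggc
CDC25A (- strand, chr3:48188418-48188537): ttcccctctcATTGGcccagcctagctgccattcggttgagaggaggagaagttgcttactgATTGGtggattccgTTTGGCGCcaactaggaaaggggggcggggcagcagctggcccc
CDK6 is shown, at the outer of its starts, as a member with none of the searched letters.
CDK6 (- strand, chr7:92836574-92836693): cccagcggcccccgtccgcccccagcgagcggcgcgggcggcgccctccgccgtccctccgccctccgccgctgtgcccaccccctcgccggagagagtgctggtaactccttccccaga

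In CCNB2 the CHR began 29 bases before the start, and 3 CCAAT boxes began 54, 87 and 120 bases before it. PLK1 likewise had its CHR at 29 bases and 1 CCAAT box at 73. In HMMR, 2 adjoining CHR copies began at 28 and 22 bases, and 2 of its CCAAT matches, 1 on each strand, overlapped. CDC20 differed, with its CHR farther out at 65 bases and CCAAT boxes at 100 and 55. The nearer box thus lay between the CHR and the start. The E2F element began 42 bases before the start in E2F2 and 44 in CDC25A.

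The RefSeq table held windows of 300 bases, from 250 before to 50 after the start, for 47 of the 59 members, some with several starts, which made 63 windows. The CHR letters were in 47.6% of the member windows and in 15.2% of all 35116 windows of the table. CCAAT was in 65.1% against 34.6%, and both together in 36.5% against 5.9%. The E2F letters were in 11.1% of member windows and in 3.31% of all windows. Counted by gene, 26 of the 40 members with a window that rose from 48 h to 96 h (below) had a CHR, as did 1 of the 7 that did not pass that test, RBL2. The same count by gene gave 18.2% of all 27305 genes of the table. None of the letters were found for KIF2C, CENPE and CDK4, which rose, or for CDK6, CCNE1 and RB1, which did not pass. CCAAT was found for 4 of the 7 that did not pass, CCND3, CDC25B, E2F7 and RBL2. In the 57 windows of 50 other mitosis genes, outside the 59, the CHR was in 59.6%, CCAAT in 64.9% and both together in 43.9%. The CHR and CCAAT letters were thus not particular to the members. In the 41 windows of 31 DNA replication genes the E2F letters were in 41.5%, the CHR in 2.44% and CCAAT in 61%. A match is a description of letters in these windows, and neither a binding site nor a cause.

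From 48 h to 96 h nearly the whole group was higher. The median difference of the 57 members was 0.66 on the log2 scale, a 1.58-fold higher signal, against a median of -0.01 over all genes tested. It was 0.63 under control shRNA and 0.67 under ALKBH3 shRNA, and 52 of the 57 were higher under both, against 36.2% of all genes tested. Both 96 h arrays lay above both 48 h arrays for 49 members, against 26.0% of all genes tested.

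The test compared the 96 h arrays with the 48 h arrays, 2 against 2. In limma's fit without a covariate, 48 of 57 members were higher at an unadjusted p below 0.05, against 9.08% of all genes tested, and 0 of 57 passed the adjusted p, as did 0 of all 14556 genes (lowest limma adjusted p = 0.132). With shRNA as a block the same 48 members passed an adjusted p below 0.05, all higher, against 6.05% of all genes tested. That call rested on the filter for dim probes, since 0 members passed it when every probe was kept, whereas 49 members then had an unadjusted p below 0.05. These 48 members are said below to have risen, and their adjusted p-values from the fit with the block ran from 0.019 to 0.049. Their folds ran from 1.31 to 2.12. Only E2F2 also passed the cutoffs of 2-fold and an unadjusted p below 0.05, which 0.124% of all genes tested passed in this direction. At single arrays, with no test, 32 members were at least 1.5-fold higher under control shRNA and 36 under ALKBH3 shRNA, against 3.37% and 3.81% of all genes tested, and 28 were so under both, against 1.7%.

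**Figure D1:**
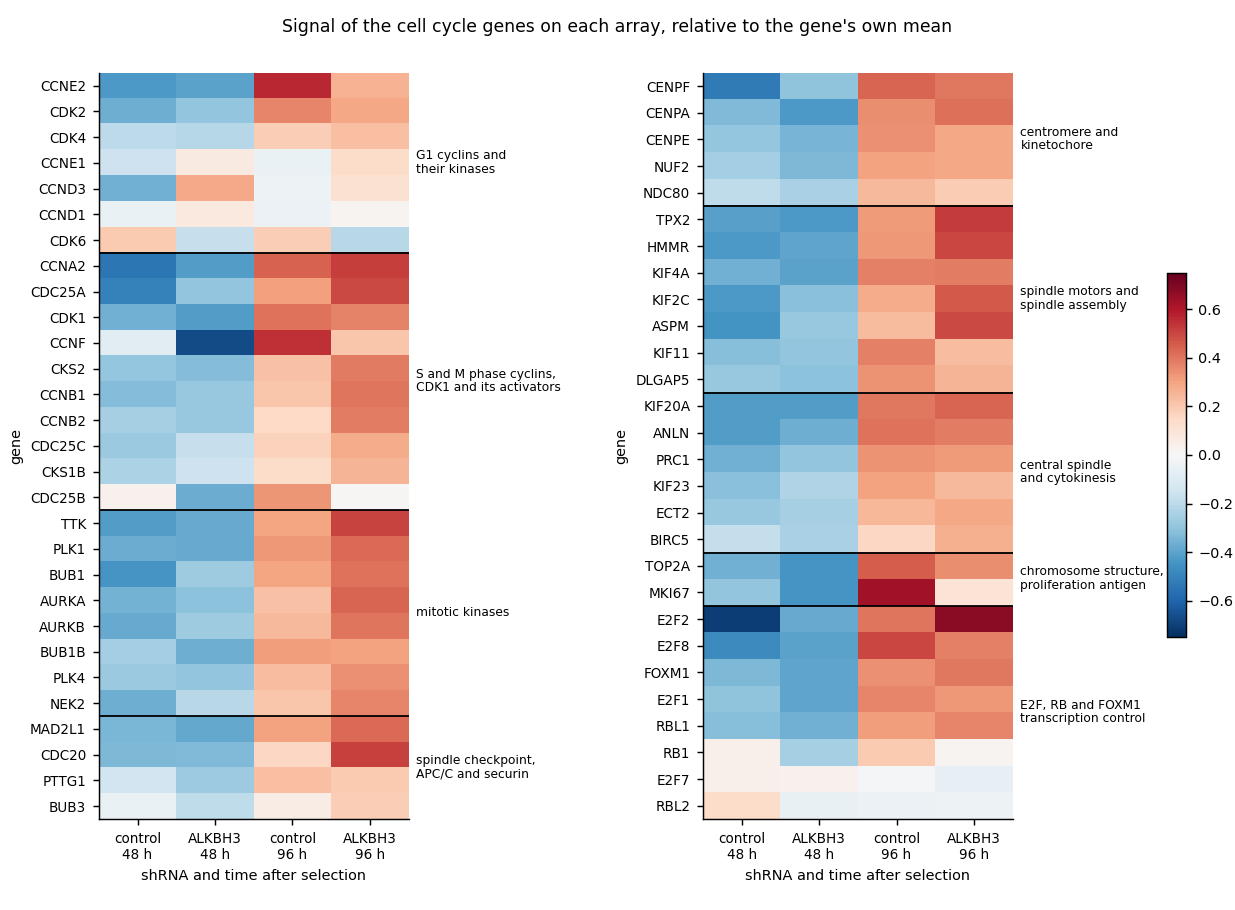
Signal of the 57 members tested on each of the 4 arrays (columns), as log2 signal minus the mean of the gene over the 4 arrays, with genes (rows) grouped by role and ordered by their difference between time points. The 48 h columns are below the mean and the 96 h columns above it for most genes of every role except the G1 cyclins and their kinases, where CCND1, CCND3, CCNE1 and CDK6 do not follow the pattern.

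The G1 cyclins and their kinases divided. CCNE2, CDK2 and CDK4 rose, and 4 of the 7 members tested did not pass the test. CCNE2, cyclin E2, had log2 signals of -1.12 and -1.09 at 48 h and -0.13 and -0.43 at 96 h, control shRNA first in each pair, as below. Its difference was 0.83 ± 0.14 (SE of the fit without the block, as below, 2 arrays against 2), and the 4 arrays did not overlap between time points. CDK2, the partner of cyclins E and A, differed by 0.66 ± 0.09, and CDK4, the partner of D cyclins, by 0.41 ± 0.09.

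CCND1, cyclin D1, was level, with 0.82 and 0.94 at 48 h and 0.83 and 0.89 at 96 h (difference -0.02 ± 0.10, limma adjusted p = 0.861 with the block). CDK6, the other kinase of D cyclins, had 0.55 and 0.18 at 48 h and 0.53 and 0.14 at 96 h, so that its arrays sorted by shRNA and not by time. CCNE1, cyclin E1, had 0.06 and 0.28 at 48 h and 0.16 and 0.35 at 96 h. Its difference of 0.09 ± 0.13 stood beside 0.83 for CCNE2. CCND3, cyclin D3, went up by 0.32 under control shRNA and down by 0.17 under ALKBH3 shRNA.

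All 10 S and M phase cyclins, CDK1 and its activators were higher at 96 h under both shRNAs, and 9 of them rose. CCNA2, cyclin A2 of S phase and G2, had -1.49 and -1.37 at 48 h and -0.51 and -0.43 at 96 h. That difference of 0.96 ± 0.10 was the second largest of the group, after E2F2. CDK1, the kinase that drives entry into mitosis, had 2.47 and 2.41 at 48 h and 3.23 and 3.20 at 96 h, a difference of 0.78 ± 0.09. CDC25A, the phosphatase that activates cyclin-dependent kinases at G1/S, had -0.75 and -0.54 at 48 h and 0.07 and 0.25 at 96 h, a difference of 0.80 ± 0.13.

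CCNF, cyclin F, an F-box protein of a ubiquitin ligase, had a low signal, with -4.44 and -5.03 at 48 h and -3.81 and -4.15 at 96 h. Its difference of 0.76 ± 0.25 carried the largest error of the group, and it was 0.47 without the ALKBH3 array of 48 h and 1.05 without the control array of 48 h. The mitotic cyclins CCNB1 and CCNB2 differed by 0.61 and 0.53, with CDC25C at 0.45 and the CDK1 subunits CKS1B and CKS2 at 0.39 and 0.61. CDC25B, another activator of CDK1, was the member that did not pass, at 0.34 ± 0.20 (limma adjusted p = 0.058 with the block).

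All 8 mitotic kinases rose, within a narrow range of 0.57 to 0.80. TTK, the kinase that starts the spindle checkpoint, was the highest, with -0.75 and -0.72 at 48 h and -0.04 and 0.17 at 96 h. BUB1, a checkpoint kinase of the kinetochore, had 0.59 and 0.76 at 48 h and 1.33 and 1.44 at 96 h, a difference of 0.71 ± 0.11. NEK2, a kinase of centrosome separation, had -2.15 and -1.99 at 48 h and -1.58 and -1.42 at 96 h, a difference of 0.57 ± 0.12. No array at 48 h reached the level of a 96 h array for any of these 3. AURKA, AURKB, PLK1, PLK4 and BUB1B lay between 0.58 and 0.75.

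Of the spindle checkpoint, its target and securin, 4 genes were tested and 3 rose. MAD2L1, a core checkpoint protein, differed by 0.72 ± 0.10, and PTTG1, the securin that holds separase inactive, by 0.42 ± 0.10. CDC20, the activator of the anaphase-promoting complex that the checkpoint restrains, had 0.10 and 0.11 at 48 h and 0.59 and 0.95 at 96 h. Its 96 h arrays differed from each other by 0.36 while its 48 h arrays differed by 0.01. BUB3, which also has a part in splicing and is needed outside mitosis, was at 0.24 ± 0.11 and did not pass (limma adjusted p = 0.169 with the block).

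The 5 centromere and kinetochore genes rose, by 0.43 for NDC80 to 0.83 for CENPF. CENPF, a large kinetochore protein made in G2, had 2.80 and 3.03 at 48 h and 3.77 and 3.72 at 96 h. CENPA, the centromeric histone, differed by 0.76, the motor CENPE by 0.64 and NUF2, the partner of NDC80, by 0.59.

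All 7 genes of spindle motors and spindle assembly rose, with the highest median of the roles that have at least 4 genes tested, 0.74. TPX2, which activates AURKA on the spindle, had 1.76 and 1.74 at 48 h and 2.49 and 2.69 at 96 h, a difference of 0.84 ± 0.11. HMMR, a spindle protein and hyaluronan receptor, had 1.38 and 1.42 at 48 h and 2.14 and 2.32 at 96 h, a difference of 0.83 ± 0.11. The 48 h arrays of each gene differed by at most 0.04. KIF4A, a chromosome-bound kinesin, had 0.15 and 0.10 at 48 h and 0.89 and 0.89 at 96 h. KIF2C, a microtubule depolymerase, had 2.29 and 2.41 at 48 h and 3.004 and 3.19 at 96 h, and ASPM, of the spindle poles, 0.995 and 1.16 at 48 h and 1.68 and 1.94 at 96 h. KIF11 and DLGAP5 differed by 0.61 and 0.59.

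The 6 genes of the central spindle and cytokinesis rose, by 0.42 for BIRC5, the survivin subunit of the chromosomal passenger complex, to 0.83 for KIF20A. KIF20A, a kinesin of the central spindle, had -0.40 and -0.40 at 48 h and 0.41 and 0.45 at 96 h. ANLN, the anillin of the contractile ring, had -0.27 and -0.22 at 48 h and 0.56 and 0.53 at 96 h, a difference of 0.79 ± 0.09. For both genes the arrays of a time point differed by at most 0.05. PRC1, which bundles midzone microtubules, differed by 0.66, and the KIF23 motor by 0.54 and the ECT2 exchange factor by 0.53.

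TOP2A, the topoisomerase that disentangles sister chromatids, had 0.16 and 0.08 at 48 h and 0.98 and 0.87 at 96 h, a difference of 0.81 ± 0.10. MKI67, the gene of the Ki-67 proliferation antigen, rose as well, with -1.71 and -1.85 at 48 h and -0.79 and -1.31 at 96 h. Its rise was 0.93 under control shRNA and 0.55 under ALKBH3 shRNA, and that difference was not tested.

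The transcription factors held the extremes. E2F2, an activating E2F, had -0.64 and -0.31 at 48 h and 0.47 and 0.75 at 96 h, the largest difference of the group at 1.08 ± 0.17, or 2.12-fold. It was 1.11 under control shRNA and 1.05 under ALKBH3 shRNA. E2F8, an atypical E2F that represses, had -2.66 and -2.59 at 48 h and -1.68 and -1.81 at 96 h, a difference of 0.88 ± 0.10. E2F1, FOXM1 and RBL1 (p107) rose by 0.69, 0.74 and 0.68.

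E2F7, the close relative of E2F8, was level at 1.24 and 1.23 against 1.19 and 1.14, and its dimmer probe gave a difference of 0.16. RBL2 (p130), the pocket protein of resting cells, was the lowest member at -0.08 ± 0.11. RB1 had 0.83 and 0.55 at 48 h and 0.99 and 0.82 at 96 h, so that its time points overlapped. Between the pocket proteins, RBL1 was the member that rose.

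**Figure D2:**
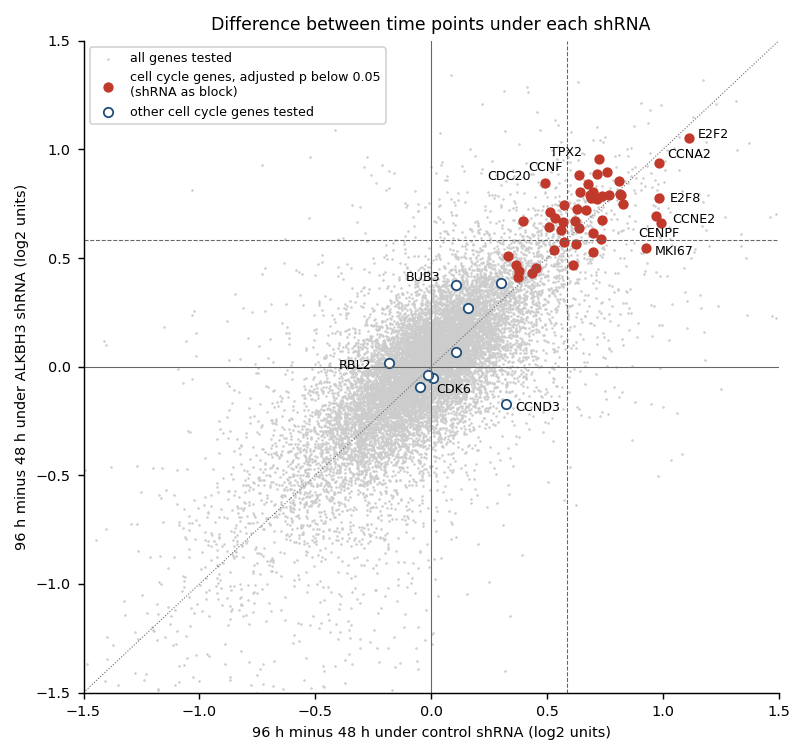
Difference between 96 h and 48 h under control shRNA (x axis) and under ALKBH3 shRNA (y axis) in log2 units for each gene, with dashed lines at 1.5-fold and a dotted line where both are equal. The 48 members that passed the test (filled red) sit in the upper right corner of the cloud of all genes tested (grey), and the other 9 (open) lie nearer the origin. For 105 genes a value lies beyond the axes.

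The differences under each shRNA come from separate arrays. The difference was larger under ALKBH3 shRNA for 36 of the 57 members, and for 55.0% of all genes tested. The median of the difference between them was 0.05 over the 57 members and 0.02 over all genes tested. It ran from -0.49 for CCND3 to 0.35 for CDC20. Each of these is 1 array pair against another and carries no test.

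Probes agreed in direction where a member had several. Of the 14 further probes of 13 members, 13 moved with the probe used, and the exception was E2F7. The widest gap was in CCNB1, whose dimmer probe differed by 0.25 where the brighter differed by 0.61. For 11 members the probe used is spotted 10 times on each array, and its spots had SDs of 0.03 to 0.14 within an array. The differences of those 11 ran from -0.02 for CCND1 to 0.96 for CCNA2.

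Genes of the same pathway outside the 59 were examined as lists. Of 58 other mitosis genes tested, 48 rose and 0 fell, with a median of 0.66. The largest differences there were 0.99 for CENPI, a kinetochore protein, and 0.96 for SKA3, which couples kinetochores to microtubules. Of 36 DNA replication genes, 30 rose and 0 fell, with a median of 0.63, and MCM10 and GINS2, factors of the replicative helicase, differed by 1.11 and 1.06. The same tests called 6.05% of all genes tested as higher.

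The regulators around them moved less. Of 13 DREAM and MuvB components and other E2F genes, 2 rose, MYBL2 (B-MYB) by 0.92 and MYBL1 (A-MYB) by 0.89, and the median was 0.21. Of 18 genes of the anaphase-promoting complex and SCF, which degrade cyclins, 1 rose, the APC/C conjugating enzyme UBE2S at 0.42, and the median was 0.04. Of 8 CDK inhibitors, 2 fell and 0 rose, CDKN1C (p57) at -0.56 and CDKN2B (p15) at -0.53. Of 18 p53 target genes, 4 fell and 0 rose, and the lowest were TP53INP1 at -0.92 and SESN2 at -0.85. The test called 7.61% of all genes tested as lower. PC3 is known to lack functional p53.

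Markers of cell state differed between time points as well. Among 6 epithelial and PC3 markers, CDH1 (E-cadherin) and EPCAM fell, by 1.33 and by 0.46 on the log2 scale. Of the markers of other cell types, the endothelial PECAM1 fell, at log2 signals below -3 on every array. The summed signal of the 9 tested was 1.03 and 1.24 at 48 h and 0.783 and 1.06 at 96 h. COL1A1, a collagen gene of fibroblasts, was the brightest of them on every array and made up most of a sum where it was high. Its log2 signals were -0.76 and -0.25 at 48 h and -1.44 and -0.54 at 96 h. The part of these shifts in the values above was not tested.

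**Figure D3:**
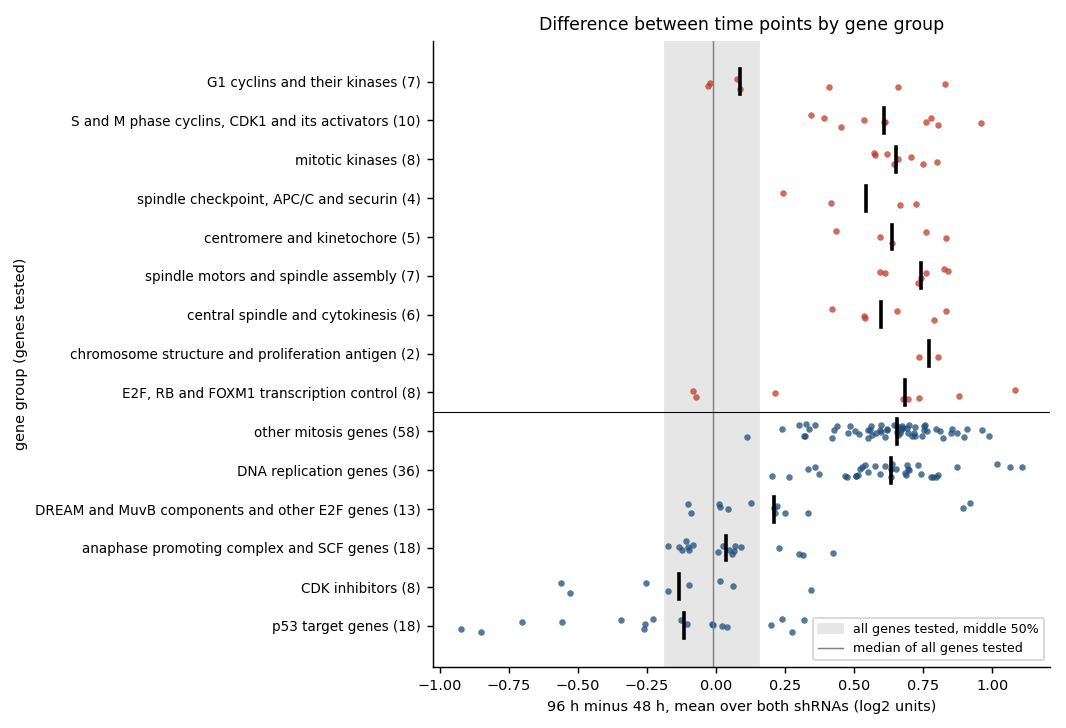
Difference between 96 h and 48 h as the mean over both shRNAs in log2 units (x axis) for each gene of the 9 roles (red) and of 6 further lists (blue), with the number tested in brackets and black bars at the medians. Medians of the mitotic roles lie between 0.54 and 0.77, well to the right of the middle 50% of all genes tested (grey band), while those of the CDK inhibitors and p53 targets lie at -0.14 and -0.12.

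The knockdown left the group near the middle of the array at both time points. The median difference, ALKBH3 shRNA minus control shRNA, was 0.02 over the 57 members on the log2 scale, with -0.004 at 48 h and 0.05 at 96 h, against -0.003 over all genes tested. The middle 50% of members lay between -0.05 and 0.10, and that of all genes tested between -0.12 and 0.13. In 40 of 57 members the difference was under 0.2 in size at both time points, as it was in 48.7% of all genes tested. It had opposite signs at 48 h and 96 h in 23 members, and in 30.2% of all genes tested.

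For the knockdown no member passed the cutoff on fold and unadjusted p, or the adjusted p. In limma's fit, 2 arrays against 2, 0 of 57 members were 2-fold different at an unadjusted p below 0.05, against 1.28% of all genes tested. For 1 member, CDK6, the unadjusted p was below 0.05, against 8.30% of all genes tested. This fit counts the difference between time points as spread, so members that rose could hardly pass it. The SE of E2F2 was 0.52 there and 0.08 with time point as a block. With the block, 2 members were higher and 5 lower at an unadjusted limma p below 0.05, against 1957 and 1691 of the 14556 genes tested. Without the block, limma adjusted p-values of the members ran from 0.496 to 0.999. With time point as a block, 0 of 57 passed the adjusted p (lowest limma adjusted p = 0.071), against 5.13% of all genes tested. At single time points, with no test, 2 members differed by at least 1.5-fold at 48 h and 0 at 96 h, against 7.09% and 6.57% of all genes tested. The arrays of the shRNAs did not overlap for 6 members, against 36.4% of all genes tested. A large difference between time points makes the shRNA groups overlap, so this count says little about the knockdown in members that rose. A p that misses the threshold does not show that levels were equal, and the small number of arrays limits what could be seen.

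**Figure D4:**
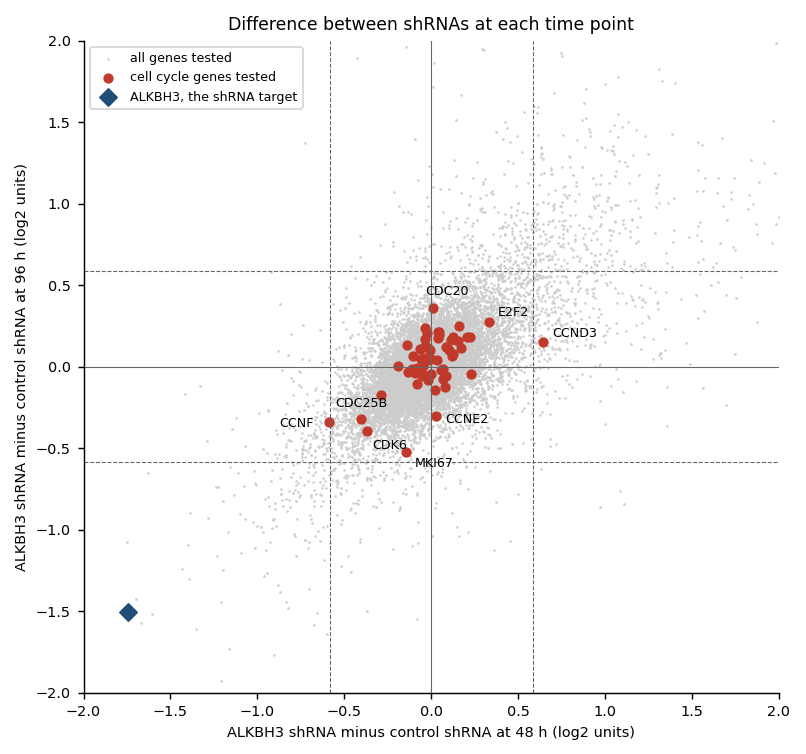
Difference between ALKBH3 shRNA and control shRNA at 48 h (x axis) and at 96 h (y axis) in log2 units for each gene, with dashed lines at 1.5-fold in either direction. The 57 members (red) cluster around 0 within the cloud of all genes tested (grey), CCND3 and CCNF are past the line at 48 h alone, and ALKBH3 (diamond) is at -1.75 and -1.51. For 69 genes a value lies beyond the axes.

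CDK6 was lower with ALKBH3 shRNA by nearly equal amounts, by 0.37 at 48 h and by 0.39 at 96 h (-0.38 ± 0.11, limma adjusted p = 0.496, and 0.071 with the block). Both arrays with control shRNA lay above both with ALKBH3 shRNA. CDC25B, with 1.79 and 1.39 at 48 h and 2.10 and 1.77 at 96 h, and RB1, with values given above, were likewise lower on both arrays with ALKBH3 shRNA (-0.36 ± 0.20 and -0.23 ± 0.15). These 3 were the members whose arrays with ALKBH3 shRNA were both below both control arrays.

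CCND3 had -0.19 and 0.45 at 48 h and 0.14 and 0.28 at 96 h, so that it was 0.64 higher at 48 h and 0.15 higher at 96 h (0.40 ± 0.16, limma adjusted p = 0.643, and 0.179 with the block). CCNE1 was higher by 0.22 and 0.18. CCND3, CCNE1 and CCND1, which was higher by 0.12 and 0.06, were the members whose arrays with ALKBH3 shRNA were both above both control arrays. None of these cyclins passed the test.

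CCNF had the largest mean difference, 0.59 lower at 48 h and 0.34 lower at 96 h (-0.46 ± 0.38, limma adjusted p = 0.875, and 0.074 with the block). Its log2 signal was below -3 on every array. When an array was left out, this mean difference ran from -0.90 to -0.02 for CCNF, from -0.56 to -0.17 for CDC25B, from -0.37 to -0.09 for RB1 and from 0.23 to 0.56 for CCND3. MKI67 was lower by 0.14 at 48 h and by 0.52 at 96 h, and its 3 probes were all lower at both time points. E2F2 was higher by 0.33 and 0.28, and CDC25A by 0.21 and 0.18. Their 48 h and 96 h arrays lie so far apart that the shRNA groups overlap.

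ASPM was higher by 0.16 and 0.25, NEK2 by 0.16 and 0.16, KIF2C by 0.12 and 0.18 and BUB1 by 0.17 and 0.11, at 48 h and 96 h. The dimmer probe of NEK2 gave -0.03 at 48 h and 0.23 at 96 h, so its equal values were seen with the brighter probe alone. CDC20 was higher by 0.01 at 48 h and by 0.36 at 96 h, and CCNE2 by 0.03 at 48 h and lower by 0.30 at 96 h. None of these passed a cutoff.

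Among the other lists, 0 of 58 other mitosis genes and 0 of 36 DNA replication genes passed the adjusted p for the knockdown with time point as a block, against 5.13% of all genes tested. Their medians were 0.02 and 0.12. Of 8 CDK inhibitors, 1 passed, CDKN2A (p16), which was lower by 0.61 at 48 h and by 0.50 at 96 h (limma adjusted p = 0.041 with the block, and 0.503 without it). Of 18 p53 target genes, 1 passed, ZMAT3, lower by 1.11 and by 0.65 (limma adjusted p = 0.042 with the block, and 0.345 without it). Of the 6 epithelial markers, EPCAM and CDH1 passed with the block, higher by 0.98 and 0.74 as means over both time points. DCN, the fibroblast proteoglycan decorin, passed too, higher by 0.65, and the part of these markers in the knockdown values of the members was not tested.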

How the data were processed

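RNA from 4 PC3 samples had been measured on single-colour Agilent 4x44K v2 arrays. The authors deposited spot intensities made by Agilent Feature Extraction (version 10.7.3.1 per the file headers), background-subtracted on each array without normalization between arrays, and a matrix of log2 values that the authors had normalized between arrays with limma. The main values start from the intensities.

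Intensities were converted to log2 and centred on the 75th percentile of each array. Flagged spots, 180 to 379 per array, were removed, none was saturated, and the spots of each probe were then averaged. A probe was well above background on an array when at least 0.5 of its spots were. The probes tested were those that met this on both arrays of either shRNA, and a gene was read from its brightest tested probe. Accessions were matched to RefSeq genes of GRCh38.p14, which named 24910 of 34127 probes.

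The software was limma 3.58.1 in R 4.3.3. Fits used lmFit and eBayes across all 14556 genes, Benjamini-Hochberg adjustment over all of them, and no covariate in the main fit. With 1 array for each shRNA and time point, each comparison set 2 arrays against 2, and nothing says that these came from separate cultures, so p-values measure the spread between these arrays. The number of arrays limits the precision. Cutoffs were 2-fold with an unadjusted p below 0.05, an adjusted p below 0.05, and, for single arrays, 1.5-fold with no test. The steps were tested on simulated data. The alternatives are listed with their effect in the closing section.

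The members and lists were chosen with earlier results of these data known. Per-array values were given for the 15 members with the largest difference in each comparison, members past a cutoff, members whose probes opposed each other, members not well above background, and at most 2 genes per further list and comparison. The other members were given by role with their differences, and each list by counts and its median. Some marker genes are not reported here.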

Additional observations from a re-analysis of the deposited data

Results flagged for a closer look

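CCND3, cyclin D3, was 0.32 higher at 96 h than at 48 h under control shRNA and 0.17 lower under ALKBH3 shRNA, so that the difference between time points was -0.49 on the log2 scale with ALKBH3 shRNA relative to control shRNA. It was singled out because the shRNAs went opposite ways, and this difference was not tested. BUB3, a spindle checkpoint protein, was 0.14 lower with ALKBH3 shRNA at 48 h and 0.13 higher at 96 h. The 96 h value exceeded the 48 h value by 0.27, and this difference between time points was not tested either. The dimmer probe of BUB3 was lower with ALKBH3 shRNA at both time points, by 0.25 at 48 h and by 0.05 at 96 h. The change of sign was thus seen with the brighter probe alone. Each of the values compares 1 array with 1 array.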

How the results depend on the processing

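The higher signal of the members at 96 h kept its direction under every alternative run. The member median of 0.66 was 0.61 after normexp background correction and 0.71 with each array centred on its median, and 0.63 to 0.65 when an array was left out. Median centring moved the median of all genes tested from -0.01 to 0.04. The number of members past 2-fold and an unadjusted p below 0.05 was 1, and 2 with median centring, with the authors' normalized values and when dim probes were kept, 37 at a cutoff of 1.5-fold, and 0 to 2 when an array was left out. E2F2 was at 0.92 without the control array of 48 h and at 0.95 without the ALKBH3 array of 96 h, and lost that call in both. No member passed the adjusted p without a block, and 48 did with shRNA as a replicate block. In alternatives chosen after seeing the data, that 48 lay between 44 and 49 under the other scalings, filters on all 4 arrays and probe means, but was 0 with no filter on dim probes, and the cause was not tested. The 48 members at an unadjusted p below 0.05 became 47 to 49 in the same alternatives and 43 to 46 when an array was left out. With 3 arrays and the block no spread remains to be estimated, so that test was not made. For the knockdown no member passed the cutoff on fold and unadjusted p, or the adjusted p, under any alternative. Leaving out an array leaves the shRNAs with unequal time points by construction, and the member median of 0.02 then ran from -0.30 to 0.33. The knockdown difference of these members changed sign in the same way, with ranges of -0.18 to 0.60 for ASPM, -0.23 to 0.51 for BUB1, -0.63 to 0.36 for CCNE2, -0.24 to 0.61 for CDC20, -0.21 to 0.60 for CDC25A, -0.25 to 0.86 for E2F2, -0.23 to 0.54 for KIF2C, -0.80 to 0.13 for MKI67 and -0.13 to 0.45 for NEK2. CDK6 stayed between -0.40 and -0.36, and CCNF, CDC25B, RB1 and CCND3 kept their signs. Time point as a block changed no call for the members in the knockdown comparison.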
